A study of Mus musculus with 14 samples.

Results

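RNA of splenic B cells from mice lacking miR-155 was compared with RNA of the same cells from wild-type mice, gene by gene. The comparison used the 5 knockout and 4 wild-type libraries, 9 of the 14 libraries of the series, and the 9533 of 22295 rows of the gene table with at least 1 RPKM (reads per kilobase of gene, scaled to the reads of the library) in at least 4 of those 9 libraries. B cells were taken from spleen by negative selection with beads and grown for 96 h in RPMI-1640 with 10% FCS. Both genotypes, and the third genotype of the series, received LPS at 5 ug/ml and IL-4 at 10 ng/ml throughout. No unstimulated culture was analysed here, so every value is that of a stimulated culture of bead-selected cells. The genotypes in the labels are wild type, miR-155[-/-], mice without miR-155, and PU.1[155-/155-]. The labels give only the name of the last; that the miR-155 site in the 3' UTR of its PU.1 gene is mutated is background knowledge of the strain. PU.1[155-/155-] appears below only where it shows how the loss of miR-155 differs from the loss of that single site. The labels name no cell type to which either mutation is restricted. The replicates are biological ones, per the series' design text. The ages of the mice, the sequencing pools and the culture days appear in no source used here, so pool, culture day and genotype cannot be told apart. In bulk RNA such as this, fewer cells of a type and less RNA per cell cannot be told apart either.

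MicroRNAs are short RNAs that guide Argonaute proteins to messenger RNAs, mostly through bases of the 3' UTR that pair with the microRNA's seed near its 5' end, and lower the stability and translation of those messengers. miR-155 is induced when B cells, T cells and macrophages are activated, and mice without it make weak germinal centre and class-switched antibody responses. Targets described in B cells include Sfpi1, which encodes the transcription factor PU.1, Jarid2, a Polycomb cofactor, and Inpp5d, the phosphatase SHIP1.

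The mature strand and the matching 3' UTR sites are shown first because the results on targets are ordered by them. Capitals mark the seed (bases 2 to 8) of miR-155-5p in RefSeq (GRCm38.p6, chr16:84714143-84714165, plus strand), and in the sites they mark the 8mer, which pairs with the seed and adds an A opposite base 1. All these sites lie in annotated 3' UTRs of GENCODE M21 and are written 5' to 3' on the strand of the messenger, with GRCm38 coordinates.
miR-155-5p: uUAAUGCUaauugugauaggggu
Jarid2, chr13:44920071-44920100, plus strand: tttagagaactgattttgttttAGCATTAA
Jarid2, chr13:44920844-44920873, plus strand: ctctgcttgtgtccctcacatcAGCATTAA
Zfp652, chr11:95764397-95764426, plus strand: gaaggctgtgaggttagtccagAGCATTAA
Nfe2l2, chr2:75675806-75675835, minus strand: gcaataatatgaaactttacaaAGCATTAA
Bach1, chr16:87732166-87732195, plus strand: aatttctctctatgaacagtttAGCATTAA
Cebpb, chr2:167690344-167690373, plus strand: tttgagaaccttttccgtttcgAGCATTAA
Sfpi1, chr2:91115415-91115444, plus strand: gctcctggaccccgccggccatAGCATTAA
Inpp5d, chr1:87719816-87719845, plus strand: gggtcctgagatgtttttaaaaAGCATTAA
Tcf7, chr11:52253005-52253034, minus strand: aatctttcccaagaagctcaccAGCATTAA
Ets1, chr9:32757186-32757215, plus strand: agaccagcactctgggttttaaAGCATTAA
The first 9 of these sites belong to genes that were higher in the knockout, and the last, in Ets1, to a gene that was lower.

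The libraries held between 35.2 M and 52.3 M reads, recovered from the steps of the low RPKM values, with overlapping ranges in both genotypes. On the first principal component (81.2% of the variance) lay the wild-type libraries between -24.8 and -23.7, and the knockout libraries between 14.7 and 21.9. The fifth knockout library was the knockout nearest to wild type on this axis and is named below where it stood apart. Median-of-ratios size factors lay between 0.956 and 1.06. The row of miR-155 or its host gene was not analysed here, so the loss of miR-155 itself was not checked from the values used. B cell transcripts were abundant in both genotypes. Cd79b, a chain of the B cell receptor, was at 449.7 ± 20.4 RPKM (SD, n = 4) in wild type and 431 ± 32.4 RPKM (SD, n = 5) in the knockout. Of the 6 B cell markers tested 0 rose and 3 fell (Ms4a1, Cd79a and Cd22), with a median log2 fold change of -0.22. Cd22 went from 181 ± 11.8 to 140 ± 5.76 RPKM. None of the 9 neutrophil, 8 NK cell, 6 mast cell and basophil and 8 erythroid and platelet markers reached the level needed for testing. Their summed levels were at most 0.0499, 1.02, 0.203 and 0.547 RPKM in any library.

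Loss of miR-155 went with a change in most of the genes these B cells expressed. Of 9533 rows, 2583 (27.1%) were higher and 3305 (34.7%) were lower in the knockout, each at an adjusted p under 0.05 (limma on log2(RPKM + 0.5) with Benjamini-Hochberg adjustment over all rows, the source of each adjusted p below). Most changes were small, with a median absolute log2 fold change of 0.36 among the called rows. At least 1.5-fold, 727 rows (7.63%) were higher and 542 rows (5.69%) were lower. At least 2-fold, 258 were higher and 87 lower. The balance of changes of at least 1.5-fold turned with the filter on low values, since a filter of 5 RPKM left 359 such rises and 398 such falls. With median-of-ratios scaling 2865 rows (30.1%) were higher and 3482 (36.5%) lower, and the calls as deposited recurred among these for 2579 of the higher and 3278 of the lower rows. In 2255 rows (23.7%) every knockout library lay above every wild-type library, and in 2371 rows (24.9%) every one lay below. The median over all rows was -0.05 on the log2 scale, and -0.03 after median-of-ratios scaling. By transcript length the medians ran from -0.12 in the 3102 shortest genes to 0.01 in the 3103 longest. By wild-type level, the 3102 lowest genes had a median of 0.10, with 42.1% higher and 21.1% lower. The 3103 highest had a median of -0.15, with 15.8% higher and 48.2% lower. A gene under 1 RPKM in every wild-type library could pass the filter only through the knockout libraries. The grouping also used the wild-type values of the comparison itself. How far this shaped the medians was not tested. The percentages and the median over all rows are the background against which each gene list below is read. No list was matched for level.

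Genes with a miR-155 site were more often higher in the knockout than genes without one. For 9307 of 9516 genes (97.8%) a 3' UTR was found by Ensembl identifier. An 8mer was present in 311 of them, and their median log2 fold change was 0.20, with 54.3% called higher and 13.2% lower. A 7-base match to bases 2 to 8 alone (AGCATTA, 7mer-m8) was the best site in 545 genes, with a median of 0.09, 42.0% higher and 23.1% lower. A match to bases 2 to 7 followed by A (GCATTAA, 7mer-A1) was the best site in 417 genes, with a median of 0.05, 37.9% higher and 21.6% lower. The 8034 genes with no such match had a median of -0.07, with 24.6% higher and 37.1% lower, close to the background. Median wild-type levels were 5.14 RPKM in 8mer genes and 7.67 RPKM in genes with no match, and the classes were not matched for level.

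The difference was present in each knockout library. Set against the wild-type mean, the median of 8mer genes minus the median of genes with no match was 0.00 ± 0.03 (SD, n = 4, -0.02 to 0.04) in wild type and 0.27 ± 0.04 (SD, n = 5, 0.23 to 0.33) in the knockout, so the genotypes did not overlap. The fifth knockout library held the lowest of these knockout values. Genes with an 8mer for the other arm of the hairpin, miR-155-3p, served as a comparator, with a median 3' UTR of 2641 bases beside 2729 bases for the 8mer genes of miR-155-5p. These 266 genes had a median of -0.01, with 32.3% higher and 28.6% lower. Both arms come from the same hairpin, so these genes need not be untouched by the knockout. With 3' UTRs split into 3 classes of length at 677 and 1798 bases, 8mer genes had medians of 0.40 (29 genes), 0.12 (77 genes) and 0.19 (205 genes) from short to long. Genes with no match had -0.12, -0.05 and -0.03 in the same classes. The 7mer-m8 genes had medians of 0.01, 0.11 and 0.09 and the 7mer-A1 genes 0.20, 0.03 and 0.04. The order 8mer, 7mer-m8, 7mer-A1 thus appeared over all lengths and in the long class, while 7mer-A1 exceeded 7mer-m8 in the short class and 8mer and 7mer-m8 were close in the middle class. The 14 genes with at least 2 8mers had a median of 0.15, no higher than the 0.20 of the 297 genes with 1. In PU.1[155-/155-] minus wild type, the 8mer genes had a median of 0.03 beside 0.08 for genes with no match. Shares of 48.6% of 8mer genes and 15.1% of genes with no match were called higher in the knockout than in PU.1[155-/155-], beside 18.1% of all rows.

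**Figure D1:**
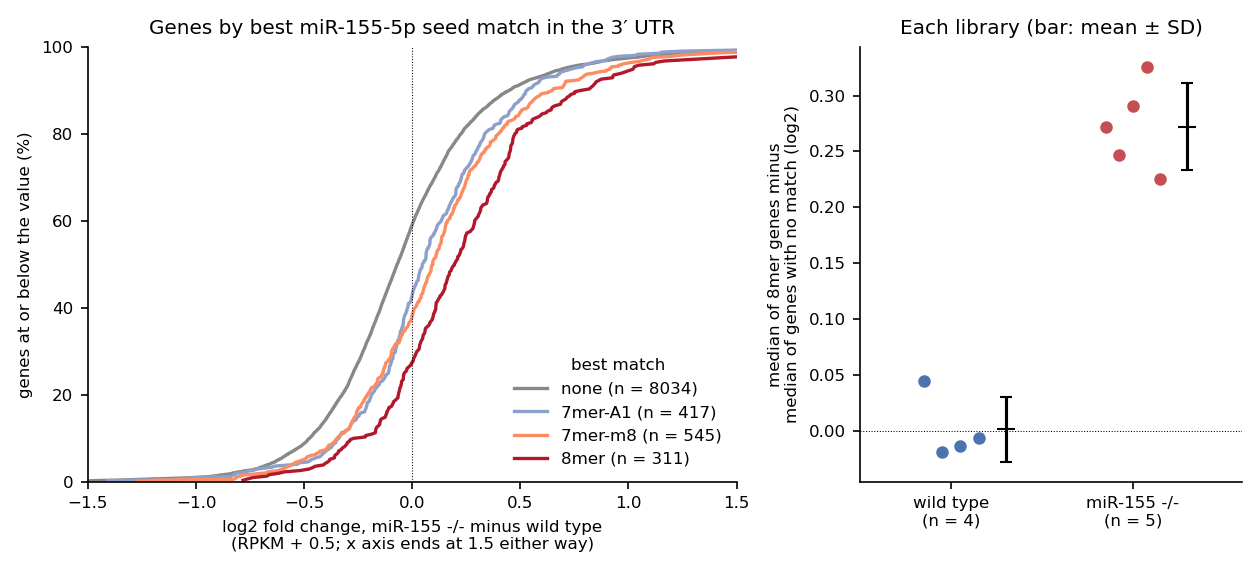
Cumulative share of genes by log2 fold change (knockout minus wild type) for 4 classes of miR-155-5p site, with the per-library difference between the median of 8mer genes and of genes with no match beside it. The curve of the 311 8mer genes lies to the right of the 8034 with no match, and the 5 knockout libraries (0.23 to 0.33) lie above the 4 wild-type libraries (-0.02 to 0.04).

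Of 58 tested genes described as miR-155 targets in the literature, 37 were called higher and 9 lower, 63.8% and 15.5%, against 27.1% and 34.7% of all rows. Their median log2 fold change was 0.32, and with median-of-ratios scaling 39 were higher and 8 lower. By the site found in the 3' UTR, of 23 with an 8mer 17 were higher and 2 lower (median 0.35), of 19 with a 7-base match 15 were higher and 2 lower (median 0.65), and of 16 with no match 5 were higher and 5 lower (median -0.01). The median was thus higher with a 7-base match than with an 8mer. The median of the list lay between 0.27 and 0.36 in the knockout libraries and between -0.03 and 0.04 in the wild-type libraries. All of these genes had been named as targets before, in part from cells without miR-155, so their direction is not independent evidence.

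Jarid2, which brings Polycomb repressive complex 2 to chromatin and holds the first pair of sites shown above, was the literature target with the largest rise. It stood at 4.24, 4.44, 4.71 and 4.36 RPKM in the wild-type libraries and at 14.8, 14.8, 16.2, 14.9 and 14.99 RPKM in the knockout libraries. Every knockout library lay far above every wild-type library, a log2 fold change of 1.66 ± 0.05 (SE, adjusted p = 6.82e-12). Zfp652, a zinc finger repressor, rose from 1.5 ± 0.03 to 4.37 ± 0.17 RPKM, a log2 fold change of 1.28. Bach1, a heme-regulated repressor, was at 1.74, 1.63, 1.77 and 1.55 RPKM in wild type and between 3.67 and 4.06 RPKM in the knockout, a log2 fold change of 1.00. Cebpb, a transcription factor of acute phase and stress responses, rose from 0.580 ± 0.185 to 1.72 ± 0.467 RPKM, with no overlap and a log2 fold change of 1.03. Peli1, a ubiquitin ligase downstream of Toll-like receptors, went up from 8.71 ± 0.285 to 16.8 ± 0.574 RPKM, a log2 fold change of 0.91.

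Some known targets moved little or the other way. Inpp5d, the inositol phosphatase that limits B cell receptor signals, was between 47.9 and 51.8 RPKM in wild type and between 54.4 and 62.8 RPKM in the knockout. It rose by 0.20 on the log2 scale (adjusted p = 0.00706). Socs1, an inhibitor of JAK kinases, was at 8.17, 10.3, 10.4 and 7.72 RPKM in wild type and at 9.02, 9.32, 8.81, 7.43 and 9.06 RPKM in the knockout. The groups overlapped, and the difference of -0.06 ± 0.09 (SE) did not pass the test (adjusted p = 0.605). Ets1, a transcription factor that restrains plasma cell formation, fell from 20.9 ± 0.779 to 15.8 ± 1.15 RPKM although its 3' UTR holds the 8mer shown above. Fos, an AP-1 subunit listed as a target, had no match in its 3' UTR and fell by 1.95 on the log2 scale, from 44.0 ± 16.4 to 10.6 ± 2.82 RPKM.

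Genes with an 8mer outside the literature list rose too. Nfe2l2, which encodes the antioxidant regulator NRF2, was at 4.20, 4.00, 4.02 and 4.43 RPKM in wild type and at 12.6, 11.9, 12.8, 12.2 and 14.2 RPKM in the knockout. The 2 ranges were far apart, with a log2 fold change of 1.5 ± 0.06 (SE, adjusted p = 7.27e-11). Tnip3, an inhibitor of NF-kB signalling, rose from 0.292 ± 0.0178 to 2.78 ± 0.572 RPKM. Tcf7, a transcription factor better known in T cells, rose from 1.66 ± 0.189 to 5.79 ± 0.246 RPKM.

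**Figure D2:**
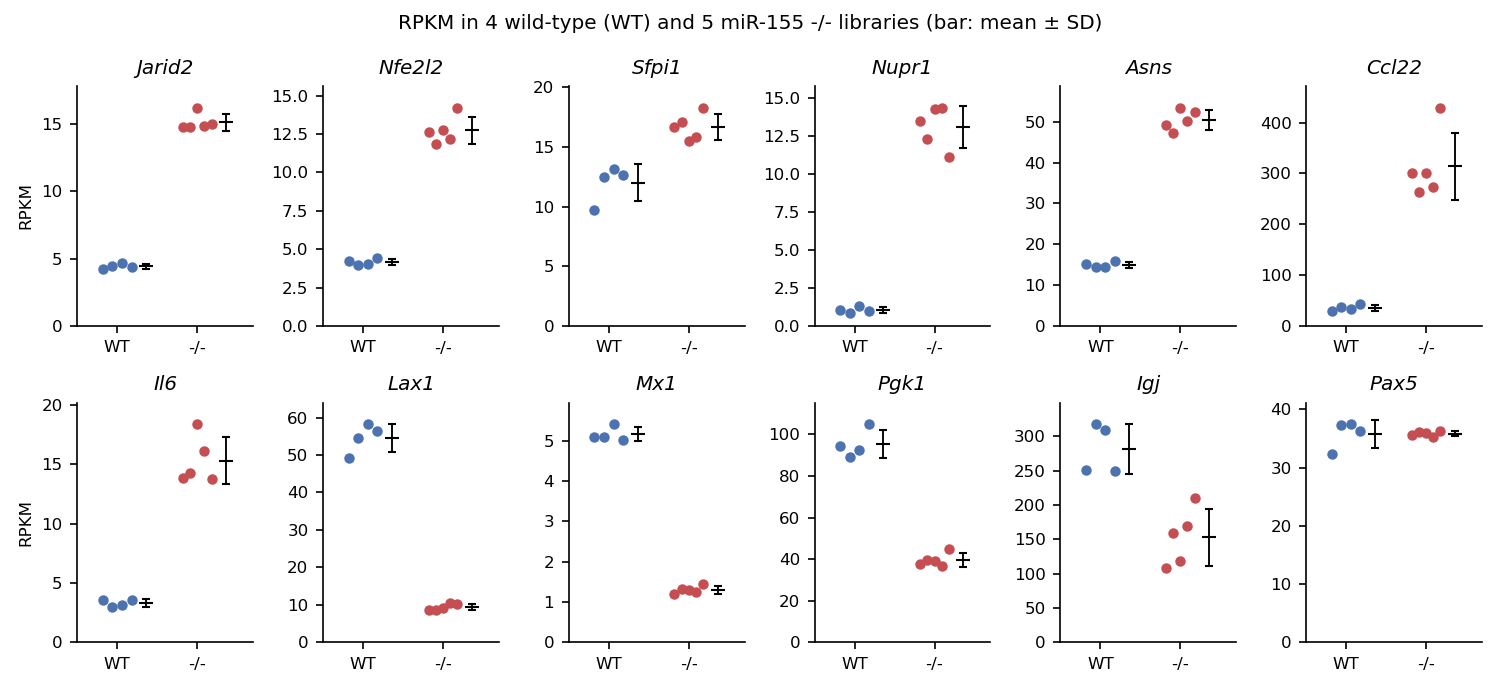
RPKM of 12 genes in each wild-type and knockout library, a panel per gene with its own linear axis from 0. Jarid2, Nfe2l2, Sfpi1, Nupr1, Asns, Ccl22 and Il6 were higher in every knockout library, Lax1, Mx1, Pgk1 and Igj were lower in every one, and Pax5 overlapped.

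PU.1, encoded by Sfpi1, is a transcription factor of myeloid and B cells whose level helps to set the fate of both. Sfpi1 stood at 9.73, 12.5, 13.2 and 12.6 RPKM in wild type and at 16.7, 17.1, 15.5, 15.8 and 18.3 RPKM in the knockout. All 5 knockout libraries lay above all 4 wild-type libraries, the first of which was the lowest, with a log2 fold change of 0.47 ± 0.08 (SE, adjusted p = 0.00019). PU.1[155-/155-] libraries held 23.7 ± 2.04 RPKM (SD, n = 5), more than the knockout, whose log2 difference from them was -0.49 (adjusted p = 1.85e-05). Of 29 tested genes associated with PU.1, 16 were higher (55.2%) and 7 lower (24.1%), with a median of 0.28.

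The PU.1-associated genes that rose most are known from myeloid cells. Csf3r, the receptor of G-CSF, was at 0.763, 0.851, 0.826 and 0.669 RPKM in wild type and at 9.38, 9.46, 9.67, 9.95 and 10.6 RPKM in the knockout. It went from under 1 RPKM in each wild-type library to over 9 RPKM in each knockout library, a log2 fold change of 3.01 ± 0.06 (SE, adjusted p = 1.47e-13). Lilrb4, an inhibitory receptor, rose from 0.621 ± 0.0756 to 6.95 ± 0.607 RPKM, Cd300lf, another inhibitory receptor, from 2.91 ± 0.328 to 22.0 ± 0.645 RPKM, and Sirpa, the receptor of CD47, from 0.441 ± 0.0453 to 3.88 ± 0.338 RPKM. Csf3r, Lilrb4 and Sirpa were under 1 RPKM in wild type, so they passed the filter only through the knockout libraries. Their place among the 29 tested genes thus depended on their level in the knockout. Other members fell, among them Ncf4, a subunit of the phagocyte oxidase (log2 fold change -0.83), and Irf8, a partner of PU.1 (-0.56). The PU.1[155-/155-] means were 1.68 RPKM for Csf3r, 1.37 for Lilrb4, 9.61 for Cd300lf and 1.29 for Sirpa. Each lay between wild type and knockout, although Sfpi1 was highest in PU.1[155-/155-]. Against PU.1[155-/155-], 10 of 29 list members were higher in the knockout and 12 lower, or 12 and 10 with median-of-ratios scaling. Over all rows 18.1% were higher and 46.2% lower in that comparison, or 28.6% and 34.9% with that scaling. The part of PU.1 in the rises was not tested. Of 15 macrophage and monocyte markers only 3 could be tested, and the list's summed level was 29.0 to 33.1 RPKM in wild type and 32.3 to 33.6 RPKM in the knockout. Csf1r was at 0.110 RPKM in wild type and 0.0496 RPKM in the knockout on average, C1qa at 0 in all 9 libraries, and the neutrophil markers S100a8 and S100a9 at 0 too. Mpeg1 and Cd68, which are on both lists, fell. Ctsb, a lysosomal protease on the macrophage list, rose from 17.8 ± 0.958 to 21.8 ± 0.318 RPKM. Emr1, which encodes F4/80, averaged 0.200 RPKM in wild type and 0.738 RPKM in the knockout, and Itgam, the integrin CD11b, 0.0499 and 0.331 RPKM. Neither reached the filter for testing, and in both genes every knockout library lay above every wild-type library. Of 8 dendritic cell markers 3 could be tested, of which Flt3 (15.8 to 22.9 RPKM) and Zbtb46 (2.34 to 4.62 RPKM) rose and Batf3 (12.4 to 8.72 RPKM) fell. That list's summed level was 26.1 to 33.3 RPKM in wild type and 31.2 to 39.5 RPKM in the knockout. The part of other cell types in the rises of PU.1-associated genes was not tested.

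PU.1 and miR-155 are both discussed as regulators of the step from activated B cell to plasma cell. Pax5, the factor that holds B cell identity, was at 32.3, 37.3, 37.4 and 36.3 RPKM in wild type and at 35.6, 36.1, 35.9, 35.2 and 36.3 RPKM in the knockout. The groups overlapped fully, with a log2 difference of 0.00 ± 0.06 (SE, adjusted p = 0.955). Prdm1, the master regulator of plasma cells, was at 5.59, 5.83, 6.25 and 5.77 RPKM in wild type and at 3.32, 4.04, 3.75, 4.51 and 5.89 RPKM in the knockout. It fell by 0.43 on the log2 scale (adjusted p = 0.00435), and the fifth knockout library lay within the wild-type range. Igj, the J chain of secreted antibody, was at 250.5, 318, 309 and 249 RPKM in wild type and at 108, 159.7, 118, 169 and 211 RPKM in the knockout, with no overlap and a log2 fold change of -0.91 ± 0.16 (SE, adjusted p = 0.000186). Irf4, needed for class switching and plasma cells, rose from 37.9 ± 1.98 to 60.1 ± 3.45 RPKM. Xbp1, the regulator of the secretory apparatus, fell from 134 ± 6.78 to 107 ± 9.75 RPKM, and Bcl6, the germinal centre repressor, fell from 8.56 ± 0.599 to 4.79 ± 0.189 RPKM. Sdc1, the plasma cell surface marker CD138, differed by 0.17 (adjusted p = 0.214) and Bach2, which delays plasma cell formation, by 0.09 (adjusted p = 0.187); neither passed the test.

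Across the plasma cell list of 30 tested genes, 9 rose and 14 fell, with a median of -0.10. The list's median ran from -0.22 to 0.06 in the knockout libraries, with the fifth the highest, and from -0.08 to 0.04 in wild type. Of 37 B cell identity genes 6 rose and 15 fell, 16.2% and 40.5%, with a median of -0.06 that became 0.04 after quantile normalization. Ms4a1 (CD20), among those that fell, was at 131, 143, 153 and 148 RPKM in wild type and between 77.8 and 90.9 RPKM in the knockout, a log2 fold change of -0.76. Cd79a, a chain of the B cell receptor, fell from 476 ± 41.4 to 336 ± 7.35 RPKM. Among 30 genes of B cell receptor signalling 9 rose and 12 fell. Malt1, a protease of NF-kB signalling, rose from 9.34 ± 0.261 to 17.1 ± 1.33 RPKM. The largest fall among rows without overlap was that of Lax1, an adaptor that dampens antigen receptor signals. It was at 49.3, 54.4, 58.2 and 56.3 RPKM in wild type and at 8.53, 8.78, 9.18, 10.4 and 10.2 RPKM in the knockout, a log2 fold change of -2.48 ± 0.07 (SE, adjusted p = 1.92e-12).

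Genes of class switch recombination were more often lower. Of 33 tested genes of this list 7 rose and 15 fell (21.2% and 45.5%), with a median of -0.14. Ung, the uracil glycosylase of switch regions, fell from 9.25 ± 0.698 to 5.58 ± 0.687 RPKM. Xrcc5, the Ku80 subunit of end joining, and Exosc3, an exosome subunit, also fell, by 0.72 and 0.60 on the log2 scale. Of the heavy chain constant region rows, Ighg2c was the one tested, and it rose from 3.38 ± 0.931 to 22.6 ± 3.41 RPKM. Other constant region rows were not analysed here, and reads shared between such genes could be counted in either.

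Genes of the LPS and NF-kB response were mostly higher in the knockout. Of 42 tested genes 25 rose and 8 fell (59.5% and 19.0%), with a median of 0.36 and between 0.30 and 0.41 in each knockout library. Il6, an inflammatory cytokine, was at 3.59, 2.98, 3.15 and 3.55 RPKM in wild type and at 13.8, 14.3, 18.4, 16.2 and 13.8 RPKM in the knockout, with a log2 fold change of 2.04 ± 0.09 (SE, adjusted p = 9.91e-11). The ranges were far apart. Nfkbia, the inhibitor of NF-kB, rose by 1.13 on the log2 scale, Bcl3 by 0.76, Relb by 0.66, Rel by 0.40 and Nfkb1 by 0.39. Bcl2a1b, a survival factor of the BCL2 family, rose from 75.7 ± 3.95 to 181 ± 4.85 RPKM, although its reads may be shared with the near-identical Bcl2a1a and Bcl2a1d. Among the 8 that fell were the adaptor Myd88 (-0.55), the nucleic acid receptors Tlr7 (-0.53) and Tlr9 (-0.39) and the kinase Irak1 (-0.36), while the receptors Tlr1 (0.66), Tlr4 (0.35) and Tlr6 (0.33) rose. Tnf, an inflammatory cytokine made by activated B cells, was at 6.60, 8.12, 6.28 and 7.55 RPKM in wild type and at 1.12, 1.08, 1.13, 1.31 and 2.22 RPKM in the knockout, a log2 fold change of -2.05 ± 0.14 (SE, adjusted p = 1.29e-08). Il6 and Tnf are both known NF-kB targets, and they moved in opposite directions with no overlap between genotypes.

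Chemokines and their receptors showed the highest median of rises among the immune lists tested, at 0.56, with 14 of 18 higher and 2 lower (77.8% and 11.1%). Ccl22, an IL-4 inducible ligand of CCR4, was at 29.8, 37.4, 33.6 and 43.7 RPKM in wild type and at 301, 264, 301, 273 and 429 RPKM in the knockout. Every knockout library lay far above every wild-type library, and the fifth was the highest, with a log2 fold change of 3.09 ± 0.13 (SE, adjusted p = 1.14e-10). Ccl5 rose from 16.8 ± 4.04 to 106 ± 14.5 RPKM. Ccr7, which guides B cells toward the T cell zone, rose from 17.8 ± 1.93 to 58.2 ± 5.20 RPKM, Cxcr4, the receptor of the germinal centre dark zone, from 10.2 ± 0.708 to 27.1 ± 1.32 RPKM, and S1pr1, the receptor for exit into blood, from 2.48 ± 0.226 to 6.88 ± 0.327 RPKM. Ccr6 and S1pr4 fell.

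Cytokine and receptor genes were mixed, with 14 of 33 higher and 12 lower (42.4% and 36.4%). Il2rb, a shared chain of the IL-2 and IL-15 receptors, fell from 4.19 ± 0.395 to 0.766 ± 0.110 RPKM, and Csf1, the macrophage growth factor, from 9.93 ± 0.995 to 3.74 ± 0.286 RPKM. Of 29 SOCS, STAT and JAK genes 12 rose and 4 fell (41.4% and 13.8%). Cish rose from 19.7 ± 1.72 to 41.1 ± 1.97 RPKM and Socs3 from 4.69 ± 0.480 to 10.5 ± 1.24 RPKM, both feedback inhibitors induced by cytokines. In the IL-4 and STAT6 list 9 of 24 rose and 7 fell (37.5% and 29.2%), with a median of 0.08. Of 34 costimulation genes 13 rose and 9 fell (38.2% and 26.5%). Slamf1 rose from 1.82 ± 0.185 to 7.55 ± 0.289 RPKM, and Cd80, a ligand of CD28, from 4.54 ± 0.508 to 16.1 ± 1.19 RPKM. Pdcd1lg2, which encodes the PD-1 ligand PD-L2, fell from 6.10 ± 0.359 to 2.14 ± 0.276 RPKM, with no overlap between genotypes and a log2 fold change of -1.33 (adjusted p = 2.87e-09). Of 28 adhesion genes 13 rose and 7 fell, with Tspan33 rising from 0.873 ± 0.0824 to 8.77 ± 0.616 RPKM. MHC class II presentation had 5 higher and 9 lower of 22 (22.7% and 40.9%), beside 27.1% and 34.7% of all rows.

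The interferon response list moved down. Of 43 tested genes 27 fell and 7 rose (62.8% and 16.3%), with a median of -0.48 that lay between -0.52 and -0.45 in each knockout library. Mx1, an antiviral GTPase, was at 5.11, 5.11, 5.41 and 5.02 RPKM in wild type and at 1.2, 1.34, 1.29, 1.25 and 1.44 RPKM in the knockout. Each knockout library was below each wild-type library, with a log2 fold change of -1.65 ± 0.06 (SE, adjusted p = 1.72e-11). Usp18, which removes ISG15 and damps the interferon receptor, fell from 11.4 ± 0.773 to 3.70 ± 0.290 RPKM, Mx2 from 5.19 ± 0.285 to 1.81 ± 0.147 RPKM, and Ifi27l2a, which has a close copy in Ifi27l2b, from 369 ± 39.2 to 133 ± 8.81 RPKM. Irf7, the regulator that amplifies the response, fell by 0.95 on the log2 scale. Not all members followed, since Oasl1 rose by 0.98, Xaf1 by 0.67 and Ifit1 by 0.36, while Isg15 (-0.03) and Rsad2 (0.05) did not pass the test. Slfn8, of the interferon-inducible Schlafen family, fell from 8.28 ± 0.527 to 1.28 ± 0.170 RPKM, and reads of its near-identical relatives may be counted with it. In the fit of all 14 libraries, 40 of the 43 genes were lower in the knockout than in PU.1[155-/155-] and 1 was higher, where 46.2% of all rows were lower and 18.1% higher. With median-of-ratios scaling these counts were 38 and 3, where 34.9% of all rows were lower and 28.6% higher. The median of PU.1[155-/155-] minus wild type was 0.43 for the same genes.

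**Figure D3:**
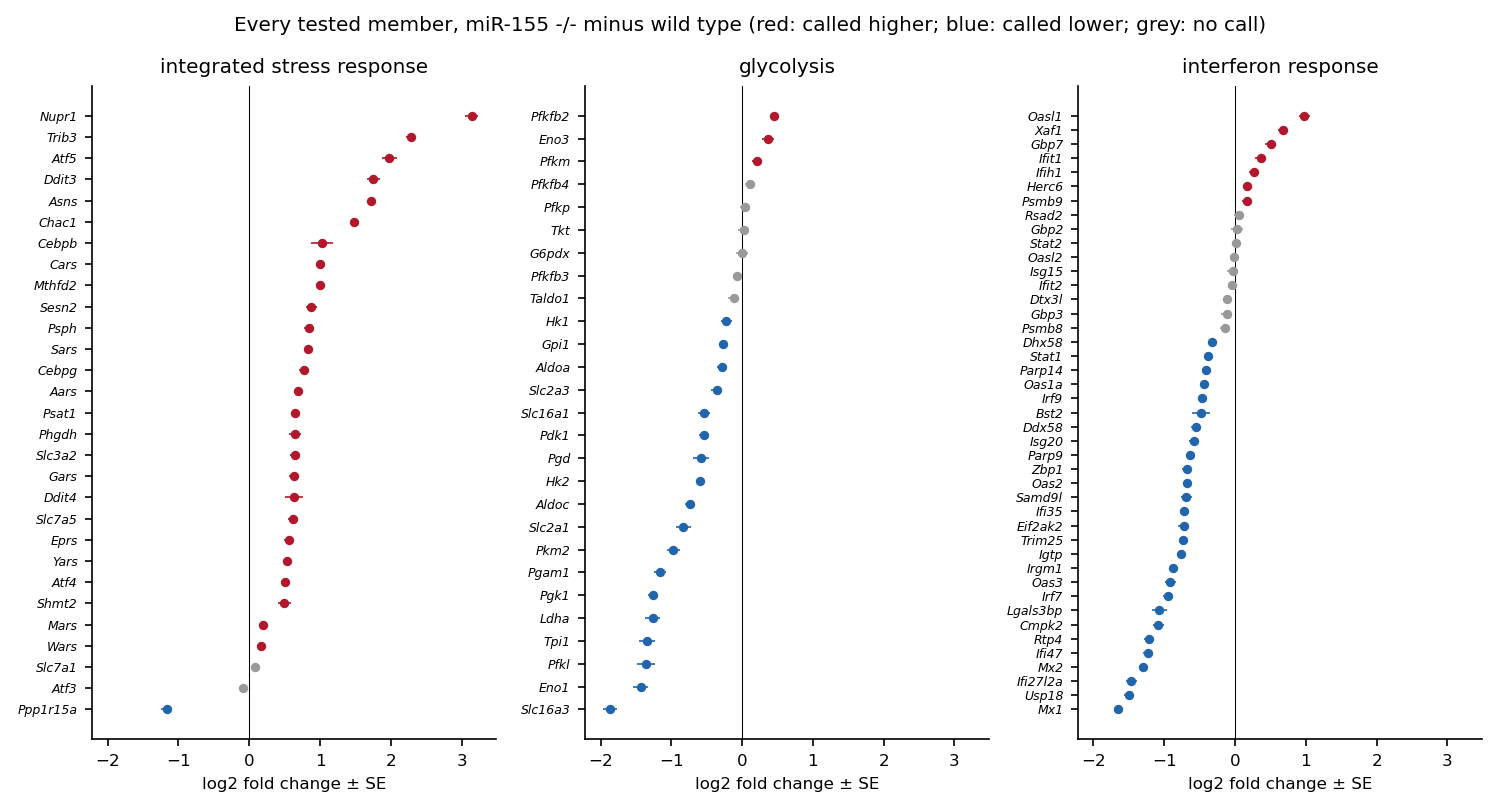
Log2 fold change (knockout minus wild type) of each tested member of 3 gene lists, with red for called higher, blue for called lower and grey for no call. Of the integrated stress response 26 of 29 were higher, of glycolysis 18 of 27 were lower, and of the interferon response 27 of 43 were lower.

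The integrated stress response was, of the 30 lists, the one with the highest share of rises. It is the programme of the transcription factor ATF4, turned on when amino acids run short or the endoplasmic reticulum is stressed, and its targets supply amino acids and charged tRNAs. Of 29 tested members 26 rose and 1 fell (89.7% and 3.45%), with a median of 0.65 and between 0.63 and 0.83 in each knockout library. Nupr1, a stress-induced chromatin protein, was at 1.04, 0.866, 1.30 and 0.962 RPKM in wild type and at 13.5, 12.3, 14.2, 14.3 and 11.1 RPKM in the knockout, a log2 fold change of 3.14 ± 0.09 (SE, adjusted p = 1.89e-12). Trib3, an inhibitor of ATF4 and AKT, was at 2.45, 2.55, 3.03 and 2.71 RPKM in wild type and between 13.4 and 16.2 RPKM in the knockout. Asns, the asparagine synthetase, was at 15.2, 14.4, 14.4 and 15.9 RPKM in wild type and at 49.2, 47.3, 53.4, 50.1 and 52.5 RPKM in the knockout. None of these 3 genes overlapped between genotypes. Chac1, which degrades glutathione, rose from 3.16 ± 0.281 to 9.72 ± 0.475 RPKM.

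Rises were found among regulators, enzymes and tRNA synthetases alike. Among its regulators, Atf4 rose by 0.51, Cebpg by 0.77, Ddit3 (CHOP) by 1.75 and Atf5 by 1.98 on the log2 scale. Among serine and one-carbon enzymes, Psat1 rose by 0.65, Phgdh by 0.64, Psph by 0.84 and Mthfd2 by 1.00. Of the tRNA synthetases on the list Cars rose by 1.00, Sars by 0.83 and Aars by 0.69, and the smallest rises were those of Mars (0.20) and Wars (0.17). The exception was Ppp1r15a (GADD34), which restores translation and fell by 1.17. Atf3 (-0.09) and Slc7a1 (0.09) did not pass the test. Among 34 genes of the unfolded protein response and secretion, 8 rose and 10 fell (23.5% and 29.4%), and Hspa5, the main chaperone of the endoplasmic reticulum, was at -0.13 without passing the test. Without the fifth knockout library 16 of that list were lower instead of 10, and after quantile normalization 11 were higher and 6 lower.

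A binding motif known for ATF4 and its partners, TGATGNAA on either strand, was searched for in the RefSeq promoters (GRCm38.p6, 250 bases before to 50 after the start) of 7623 tested genes that matched by name. It was found in 8 of the 25 promoters of the list (32.0%) and in 208 of all 7623 (2.73%). Since the list holds known ATF4 targets, this share cannot test whether ATF4 acted here. Of the 208 genes with the motif 82 were higher and 54 lower, with a median of 0.04, beside -0.05 for all 7623. It was found in 6.79% of the promoters of genes at least 1.5-fold higher and in 2.37% of those at least 1.5-fold lower. The sites of the 4 members described above are printed with the motif or its reverse complement in capitals, 5' to 3' on the strand of the gene.
Nupr1, chr7:126625563-126625590, minus strand: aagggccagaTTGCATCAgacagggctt
Trib3, chr2:152344029-152344056, minus strand: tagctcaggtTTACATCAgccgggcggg
Asns, chr6:7693215-7693242, minus strand: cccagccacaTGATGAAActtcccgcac
Chac1, chr2:119351039-119351066, plus strand: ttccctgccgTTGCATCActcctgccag
A match describes these letters and does not show that a factor was bound. The interferon motif ISRE was found by the same search in 15 of 32 promoters of the interferon list (46.9%) and in 3.83% of all. That list too holds known targets, so its share has the same limit. The 15 genes with the ISRE had a median of -0.12, with 3 higher and 7 lower, beside -0.29 for the 32.

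Glycolysis moved the other way. Of 27 tested genes 18 fell and 3 rose (66.7% and 11.1%), with a median of -0.54. Pgk1, phosphoglycerate kinase, was at 94.5, 89.2, 92.5 and 105 RPKM in wild type and at 37.7, 39.5, 39.4, 36.6 and 44.9 RPKM in the knockout, a log2 fold change of -1.26 ± 0.07 (SE, adjusted p = 1.64e-09). The fifth knockout library was the highest of its group and still below all wild-type libraries. Slc16a3, the lactate exporter MCT4, fell from 5.86 ± 0.973 to 1.24 ± 0.166 RPKM, Eno1, enolase, from 68.2 ± 5.42 to 25.2 ± 4.49 RPKM, Ldha, lactate dehydrogenase, from 271 ± 26.6 to 114 ± 21.5 RPKM, and Pgam1, phosphoglycerate mutase, from 35.0 ± 2.44 to 15.5 ± 2.19 RPKM. The 3 that rose were Pfkm, Eno3 and Pfkfb2. The list's median lay between -0.59 and -0.19 in the knockout, with the fifth library nearest to wild type, and between -0.09 and 0.15 in wild type.

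Hypoxia targets overlap with that list, and 13 of 22 fell while 6 rose (59.1% and 27.3%). Ankrd37 fell from 4.64 ± 0.199 to 1.44 ± 0.319 RPKM. Vegfa, the vascular growth factor, rose from 9.43 ± 0.556 to 28.6 ± 0.720 RPKM and Adm, adrenomedullin, rose by 1.66 on the log2 scale. Transcripts of the mitochondrial genome were mostly higher, with 9 of 13 called higher and 2 lower (69.2% and 15.4%) and a median of 0.74. mt-Nd3, a subunit of complex I, was at 432, 407, 389 and 442 RPKM in wild type and at 1573, 1565, 1808, 1728 and 2115 RPKM in the knockout. mt-Nd2 rose from 503 ± 5.10 to 1299 ± 201 RPKM, while mt-Co1 fell from 3393 ± 87.2 to 2625 ± 285 RPKM. Nuclear genes of oxidative phosphorylation did not follow, with 7 of 63 higher and 29 lower (11.1% and 46.0%), a median of -0.14, and 16 higher and 23 lower after quantile normalization. None of 61 ribosomal protein genes was called higher and 33 were called lower (54.1%), with a median of -0.18. Among the 3103 genes highest in wild type, 48.2% were lower, with a median of -0.15. Mitochondrial and ribosomal protein genes have many near-identical copies in the genome, so their levels depend on how shared reads were counted.

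Genes of cell division were mostly lower in the knockout. Of 42 genes of the G1/S transition and DNA replication 32 fell and 6 rose (76.2% and 14.3%), with a median of -0.45. Mcm3, a subunit of the replicative helicase, was at 76.1, 79.8, 77.5 and 85.6 RPKM in wild type and at 41.7, 42.9, 40.8, 42.8 and 53.1 RPKM in the knockout, a log2 fold change of -0.85 ± 0.08 (SE, adjusted p = 2.79e-07). Pcna, the sliding clamp, fell from 95.8 ± 3.93 to 56.4 ± 5.32 RPKM. In both genes the fifth knockout library was the highest of its group, and no library overlapped. Among the 6 that rose were the G1 regulators Ccnd2, from 61.9 ± 3.69 to 129.9 ± 4.74 RPKM, and Cdk6, from 1.51 ± 0.163 to 3.15 ± 0.342 RPKM. Of 38 mitosis genes 19 fell and 2 rose, with a median of -0.20. Cdc25b, the phosphatase that opens mitosis, fell from 35.5 ± 1.99 to 21.7 ± 0.358 RPKM, and Wee1, the kinase that holds it back and a literature target of miR-155, rose by 0.42 on the log2 scale.

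Genes of growth arrest and cell death were more often higher. Of 28 p53 targets 13 rose and 6 fell (46.4% and 21.4%), and of 27 BCL2 family and caspase genes 16 rose and 6 fell (59.3% and 22.2%). Cdkn1a, the cell cycle inhibitor p21, was at 9.66, 12.6, 12.5 and 11.6 RPKM in wild type and at 31.5, 31.4, 30.2, 27.3 and 35.3 RPKM in the knockout, a log2 fold change of 1.39 ± 0.08 (SE, adjusted p = 4.7e-09). Pmaip1, the pro-apoptotic protein NOXA, rose from 10.8 ± 0.862 to 74.9 ± 3.69 RPKM and is also among the genes with an 8mer. Bnip3 (-0.82), Bnip3l (-0.77) and Mcl1 (-0.27) fell, while Mdm2 (0.08) and Bcl2l11 (0.02) did not pass the test. Of 33 genes of cholesterol and fatty acid synthesis 22 fell and 4 rose (66.7% and 12.1%), with a median of -0.35. Elovl6, a fatty acid elongase, fell from 3.85 ± 0.252 to 1.82 ± 0.157 RPKM, and Lpin1, a literature target with a role in lipid synthesis, rose by 0.62. Of 26 immediate early genes 17 fell and 5 rose (65.4% and 19.2%). Egr1 fell from 43.0 ± 2.35 to 19.0 ± 2.09 RPKM and Fosb from 6.78 ± 3.03 to 0.885 ± 0.449 RPKM. Of the 11 tested subunits and cofactors of Polycomb repressive complex 2, 5 rose and 5 fell (45.5% each). Beside Jarid2 the catalytic subunit Ezh2 rose by 0.39 while Suz12 fell by 0.24.

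**Figure D4:**
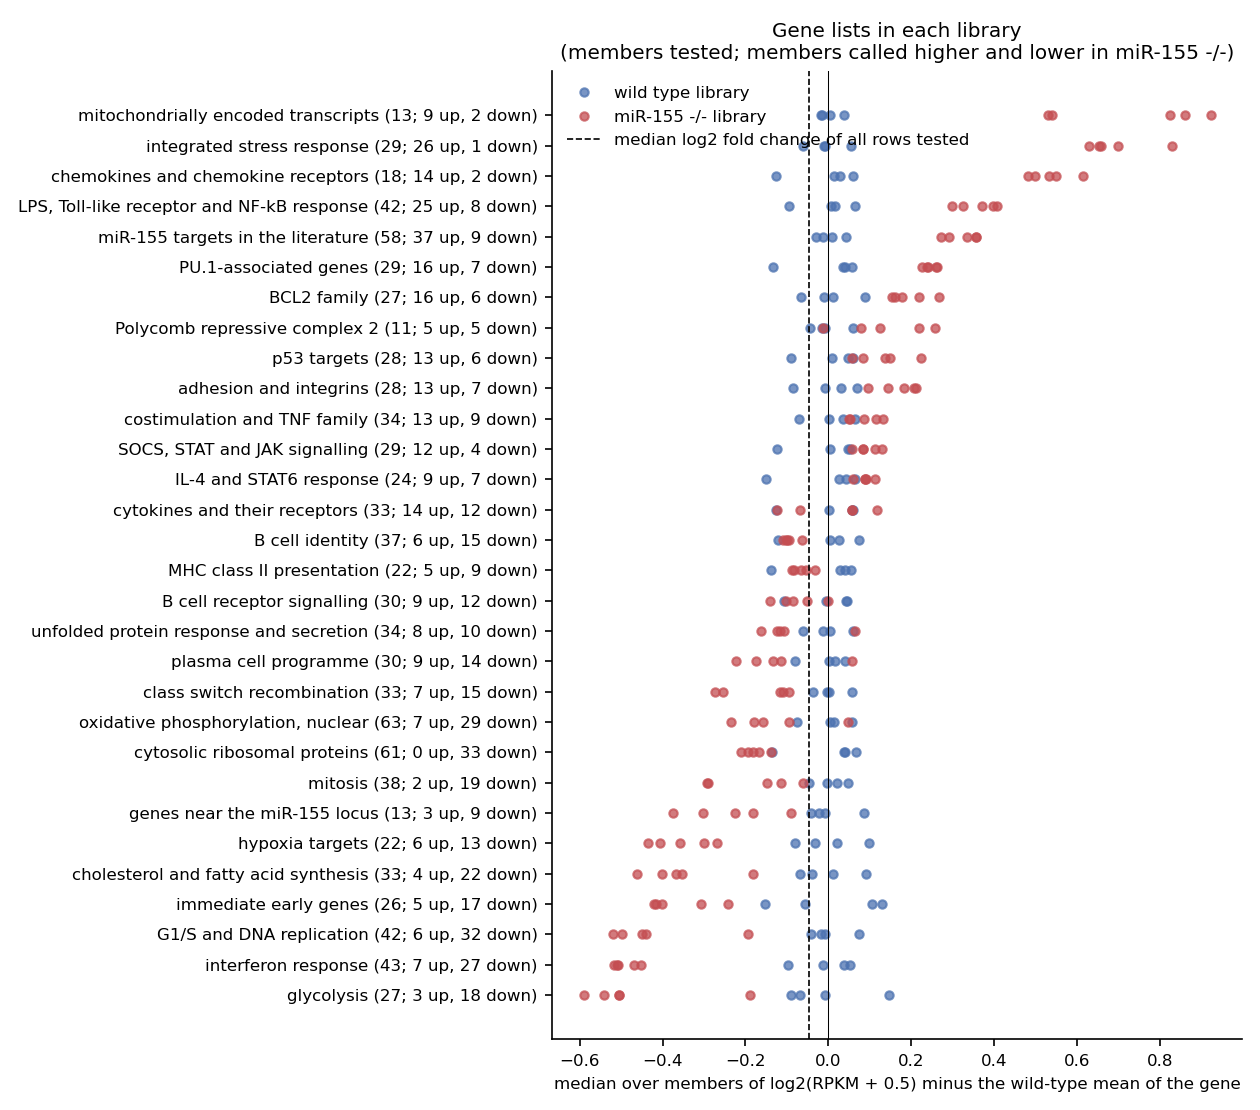
Median log2 RPKM of 30 gene lists relative to the wild-type mean, a row per list and a point per library. The dashed line marks the median of all rows (-0.05), the integrated stress response and mitochondrially encoded transcripts lie to its right in all knockout libraries, and glycolysis and G1/S genes lie to its left.

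The largest rise among the named genes was that of Aqp9, a channel for glycerol and water. It was at 0.0878, 0.133, 0.0758 and 0.192 RPKM in wild type and at 12.9, 11.4, 14.9, 12.3 and 10.4 RPKM in the knockout, a log2 fold change of 4.37 ± 0.09 (SE, adjusted p = 1.47e-13), which the pseudocount understates. Cox6a2, a muscle isoform of a cytochrome oxidase subunit, rose from 2.94 ± 0.622 to 32.5 ± 4.94 RPKM, and Irg1, the enzyme that makes itaconate in activated macrophages, from 0.228 ± 0.0558 to 4.86 ± 1.12 RPKM. Among the falls, Lrrc32, which presents latent TGF-beta, went from 5.16 ± 0.339 to 0.605 ± 0.0932 RPKM and Erg, an ETS factor, from 2.01 ± 0.105 to 0.0717 ± 0.0230 RPKM.

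Genes beside the deleted locus were examined because a targeted allele can alter its neighbours. Mrpl39, a mitochondrial ribosomal protein on the opposite strand next to miR-155 (NCBIM37 chr16:84717821-84735987, minus strand), was at 6.88, 7.12, 7.51 and 8.53 RPKM in wild type and at 1.80, 1.66, 1.15, 1.2 and 1.21 RPKM in the knockout. The groups were far apart, with a log2 fold change of -2.08 ± 0.10 (SE, adjusted p = 4.4e-10), and PU.1[155-/155-] libraries were at 7.97 ± 0.650 RPKM (SD, n = 5). The next genes, Atp5j (-0.56) and Gabpa (-0.29), also fell, and App (0.65) and Bach1 (1.00), the latter with an 8mer, rose. Of the 10 tested genes within 5 Mb of Mrpl39, 8 fell and 2 rose. On the whole of chromosome 16, 24.8% of 310 rows were higher and 40.6% lower.

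Set beside PU.1[155-/155-], in a fit of all 14 libraries, the knockout had 1725 rows higher (18.1%) and 4409 lower (46.2%). This split depended on scaling, because median-of-ratios scaling moved the median difference over all rows from -0.13 to -0.03. After it 2724 rows (28.6%) were higher and 3330 (34.9%) lower, so rises made up 28.1% of calls as deposited and 45.0% with scaling. Of the 58 literature targets 33 were higher and 13 lower than in PU.1[155-/155-], or 39 and 10 with scaling. Jarid2 was at 5.55 ± 0.245 RPKM in PU.1[155-/155-] and Nfe2l2 at 4.48 ± 0.229 RPKM, each well below the knockout. Ccl22, at 181 ± 22.2 RPKM, lay between wild type and knockout, and Socs3, at 10.9 ± 1.58 RPKM, was not distinguished from the knockout (log2 difference -0.04, adjusted p = 0.715). Igj, at 132 ± 29.6 RPKM, was not distinguished either (0.21, adjusted p = 0.294). Slc16a3, at 9.97 ± 0.754 RPKM, and Ankrd37, at 9.34 ± 1.00 RPKM, were, with Mrpl39, Slfn8 and Usp18, among the genes furthest below PU.1[155-/155-] in the knockout. Glycolysis had 22 of 27 genes lower than in PU.1[155-/155-] and 2 higher. The integrated stress response had 23 of 29 higher and 2 lower.

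The knockout libraries were not all alike. In Snx22, a sorting nexin, they held 3.42, 4.35, 1.75, 1.73 and 1.54 RPKM, beside 4.20 to 5.77 RPKM in wild type. In Ptger1, a prostaglandin receptor, they held 1.45, 1.65, 0.678, 0.533 and 0.412 RPKM, beside 1.62 to 2.13 RPKM in wild type. In both genes the first and second knockout libraries were nearer to wild type and the other 3 were lower. mt-Nd2 split the same libraries, at 1071 and 1113 RPKM in the first and second and at 1380.0, 1385 and 1547 RPKM in the others. The labels give no feature that separates these libraries, and the source of the split was not tested. Thy1, a marker on the T cell list that activated B cells can also carry, rose from 44.9 ± 1.22 to 70.6 ± 3.85 RPKM, while Lck, on the same list, fell from 7.64 ± 0.615 to 5.33 ± 0.634 RPKM. Cd3d, Cd3e, Cd3g and Cd4 were at most at 0.0957 RPKM in any of the 9 libraries. Cd8a, a chain of the CD8 coreceptor, was at 0.0145 to 0.0474 RPKM in wild type and at 0.573 to 0.719 RPKM in the knockout, and Cd5, which some B cells also carry, at 0.175 to 0.359 and 0.761 to 1.36 RPKM. Neither reached the filter for testing, and neither overlapped between genotypes. Of the 12 genes on the T cell list 2 were tested, and its summed level, mostly Thy1, was 52.0 to 55.6 RPKM in wild type and 75.5 to 84.4 RPKM in the knockout. The part of T cells in the results was not tested.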

How the data were processed

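Polyadenylated RNA was sequenced with an Illumina TruSeq kit, per the labels. The authors deposited 1 table of RPKM values with a column for each library. Per the submitters' processing notes, Trim Galore, TopHat and the mouse build NCBIM37 were used. Details not given in the sources used here include versions, the read counter, its annotation, the strand setting and the treatment of shared reads. Without strand, reads of overlapping genes cannot be told apart. The values are not counts, and no count model was run. Depth was recovered from the steps of low RPKM values, of which 73.2% to 80.4% per library came out as whole reads, with the gene span as length. Of the columns, 0 could not be matched to a library and 0 pairs were identical. The table held 63 rows that repeat a gene.

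Rows with at least 1 RPKM in at least 4 of 9 libraries were log2-transformed with a pseudocount of 0.5 and fitted by limma 3.58.1 (R 4.3.3), with an intensity trend, two-sided, and called at a Benjamini-Hochberg adjusted p under 0.05. Fold changes on that scale understate the change of low genes. Genes under 1 RPKM in every library of 1 genotype passed the filter only through the other. Among them, Aqp9, Irg1, Tspan33, Tnip3 and Cebpb passed through the knockout, and Lrrc32, Erg and Il2rb through wild type. The comparison with PU.1[155-/155-] fitted all 14 libraries on the same rows. Tested on simulated data of 9533 rows for the knockout against wild type, 25 of 50 genes changed 1.2-fold were called, 49 of 50 changed 1.5-fold, 50 of 50 changed 2-fold, and 12 of 9333 unchanged genes. Most simulated rows were unchanged, whereas 5888 of the real rows were called. The simulated shares therefore do not give the error rate of the real calls. Alternatives were median-of-ratios and quantile scaling, other pseudocounts and filters, no trend, a replicate block, all 14 libraries and leaving out each library.

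Sites were searched in the longest 3' UTR of each gene in GENCODE M21 (GRCm38), matched by Ensembl identifier, and promoters came from RefSeq (GRCm38.p6), with Python 3.11.15. No coordinate of the table (NCBIM37) was joined to these. Members and lists were chosen with earlier results of these data known, and lists are described by counts and medians without a test.

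Genes were named by rule. The rule took the 12 largest rises and falls called with and without scaling and free of overlap, the 4 members of each list with the smallest adjusted p, and 16 regulators and known targets. It also took the 8 called rows with the largest RPKM difference each way, the 10 genes with an 8mer that rose most and the 3 that fell most, the 8 called rows with the largest spread among knockout libraries, and the 6 rows each way that differed most from PU.1[155-/155-]. Other list members named in the text were chosen after their values were seen.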

Additional observations from a re-analysis of the deposited data

Results flagged for a closer look

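In each group of 4 or 5 libraries the highest and lowest values of the 176 named genes were set against the others, and 27 of 352 group values (7.67%) had a library separated from the rest by a gap that is wide for the group's range. Chance gives such a gap in about 1 in 20 groups. The fifth knockout library accounted for 12 of them, the first wild-type library for 6 and the fourth wild-type library for 4.

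The fifth knockout library was high in Actb (922 RPKM, others 673 to 731), Ccl22 (429, others 264 to 301), Irg1 (6.80, others 3.98 to 4.77), Mcm3 (53.1, others 40.8 to 42.9), Pcna (65.5, others 52.9 to 56.5), Pgam1 (19.4, others 14.2 to 15.01), Pkm2 (289, others 203 to 227), Sh3bp2 (13.1, others 12.8 to 12.9), Thy1 (77.3, others 67.6 to 70.1) and Tnf (2.22, others 1.08 to 1.31). It was low in Bcl2a1b (173 RPKM, others 181 to 184) and Il6ra (5.39, others 5.91 to 6.06). Each of these 12 values lay on the knockout side of the wild-type range.

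The first wild-type library was low in 1110032F04Rik (5.19 RPKM, others 6.48 to 6.55), Ctsb (16.3, others 18.2 to 18.3), Derl1 (30.4, others 32.3 to 32.6), Mx2 (4.76, others 5.30 to 5.35), Sel1l (16.9, others 18.9 to 19.1) and Wee1 (4.42, others 5.10 to 5.23). The fourth was high in Cd80 (5.29 RPKM, others 4.19 to 4.36), Malt1 (9.73, others 9.19 to 9.25), Pkm2 (504, others 419 to 433) and Zmat3 (8.71, others 7.60 to 7.71). Single values stood apart in Ctsl, with the second wild-type library at 1.55 RPKM and the third knockout library at 3.74 RPKM, and in Slfn8, with the third wild-type library at 9.06 RPKM. The third knockout library was also high in Jarid2 (16.2 RPKM, others 14.8 to 14.99), and the fourth was low in Socs1 (7.43 RPKM, others 8.81 to 9.32). No cause of these gaps was tested.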

How the results depend on the processing

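A filter of 5 RPKM left 6165 rows and gave 3869 calls against wild type, 1420 of them higher, 757 at least 1.5-fold, of which 359 were higher and 398 lower, so that falls outnumbered rises; fewer rows were tested. Against PU.1[155-/155-] that filter gave 867 higher rows, and median-of-ratios scaling 2724 in place of 1725. The median of 8mer genes was 0.12 with 3' UTRs of middle length. With 1 library left out at a time, calls against wild type ran from 5360 to 6202, higher rows from 2372 to 2553, lower rows from 2862 to 3671, changes of at least 1.5-fold from 1210 to 1386 (693 to 758 higher, 488 to 656 lower), and the 8mer median from 0.18 to 0.21. Against PU.1[155-/155-] calls ran from 5700 to 6413, with 1570 to 1798 higher and 3906 to 4733 lower. The highest count of calls against wild type came without the fifth knockout library. With the replicate block 6330 rows were called, 2569 higher and 3761 lower, and 1387 at least 1.5-fold (730 and 657); against PU.1[155-/155-] the block gave 6401 calls (1812 and 4589). Same-numbered wild-type and knockout deviations correlated at -0.28, 0.46, -0.18 and 0.11 for replicates 1 to 4. The highest correlations with another number were 0.57, 0.25, 0.41 and 0.08. Replicates 2 and 4 thus correlated best with their own number, and replicates 1 and 3 did not. With so few libraries, these values cannot decide whether replicate numbers mark pairs.

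Of 3126 recomputed values of the 176 named genes, 3111 kept direction and side of the threshold, 11 (in mt-Co1, Rpl32 and AF085738) lost the call, 4 (Pax5 and Bach2 among the genes) gained it and 0 reversed. Of 1296 list counts 27 moved by more than 1.5 times. With a pseudocount of 0.1 or 1 in place of 0.5, 1490 or 1024 rows changed at least 1.5-fold. Sites and promoters rest on a newer build than the table.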

Other observations

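2 further gene groups were looked at after the values above were seen, so they are descriptions and no list count is drawn from them. Amino acid transporters, which the stress programme serves, moved in both directions. Slc7a3, a cationic amino acid transporter, was at 4.55, 4.56, 4.84 and 5.18 RPKM in wild type and at 16.1, 16.2, 16.2, 15.6 and 15.9 RPKM in the knockout, a log2 fold change of 1.64 ± 0.05 (SE, limma adjusted p = 7.43e-12). Slc1a4, a transporter of serine and alanine, rose from 2.91 ± 0.138 to 7.29 ± 0.551 RPKM, Slc38a2, a glutamine transporter, from 24.2 ± 1.04 to 48.4 ± 2.66 RPKM, and Slc7a7 from 2.68 ± 0.166 to 4.87 ± 0.164 RPKM. Slc3a2 and Slc7a5, the 2 chains of the leucine transporter, rose as well, by 0.64 and 0.62 (log2). Slc7a6 fell by 0.49, Slc1a5 fell by 0.36 and Slc38a1 fell by 0.19, and Slc7a1 (0.09) did not pass the test.

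The machinery that makes and uses microRNAs also differed. Dgcr8, the partner of Drosha, fell from 7.13 ± 0.201 to 4.81 ± 0.540 RPKM, Drosha from 7.69 ± 0.281 to 5.80 ± 0.542 RPKM and Dicer1 from 7.80 ± 0.129 to 6.40 ± 0.498 RPKM. Of the Argonaute genes, listed under their older names, Eif2c2 rose from 11.9 ± 0.338 to 14.8 ± 0.284 RPKM, Eif2c3 and Eif2c4 went up by 0.36 and 0.27 (log2), and Eif2c1 fell by 0.20. Eif2c2 and Eif2c3 hold an 8mer for miR-155-5p in the 3' UTR. Tnrc6b, a silencing partner of Argonaute, rose from 6.39 ± 0.240 to 9.33 ± 0.284 RPKM, while Tnrc6a (0.00) and the export factor Xpo5 (-0.11) did not pass the test.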
